A study of Mus musculus with 47 samples.

Results

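Adhesion G protein-coupled receptors (aGPCRs) are cell-surface receptors with a long extracellular part, which binds matrix proteins or proteins of neighboring cells, and a 7-pass membrane part that signals through G proteins. Most of them cut themselves within a conserved extracellular domain, and the stretch behind the cut can act as a tethered agonist. In muscle, Adgrg1 (also called GPR56) is a receptor of early myoblast differentiation, and Adgrb1 and Adgrb3 (BAI1 and BAI3) act in myoblast fusion through the engulfment proteins Elmo and Dock. The 10 aGPCR genes described here, out of 45706 genes in the tables, were picked by symbol: Adgrg1, Adgrg6, Adgrb1, Adgrb2, Adgrb3, Adgrl1, Adgrl2, Adgrl3, Adgra2 and Adgre5. Adgrg1 was selected on its levels with and without dox at 0 and 24 h, so these levels, and those of the other 9 members in the same contrasts, are given as a description with no test. Adgrb1 and Adgrb3 were selected on their known roles in fusion.

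The 47 polyA RNA-seq libraries came from C2C12 cells, an immortalized line of mouse myoblasts. C2C12iMyoD1 cells keep their endogenous MyoD1 gene and carry Halo-tagged MyoD1 under a dox-responsive promoter, integrated by transposition into a polyclonal population in which not every nucleus expressed the transgene, and C2C12iCdh23 and C2C12iMcam cells carry the adhesion genes Cdh23 or Mcam in the same way. C2C12iMyoD1 cells received dox (1 µg/mL) or vehicle for 24 h in growth medium (0 h), or from the start of serum starvation for 24, 48 or 120 h. The 120 h cultures were taken whole, or split with a 40 µm filter into a myoblast-enriched fraction that passed it and a myotube-enriched fraction that did not, and the other 2 lines were taken at 48 h with and without dox. Each of the 16 groups held 3 replicates, except the myoblast-enriched fraction with dox, which held 2, and none of them was a line without a transgene that received dox.

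Libraries summed to between 15066338 and 50950674 counts. Levels are given as CPM, each count as a share of its library's total after TMM scaling. Without dox, the summed level of 10 myotube markers was between 7.13 and 9.28 CPM at 24 h and between 13400 and 14600 CPM at 48 h, and the 5 endothelial markers together did not exceed 1.46 CPM in any library. The integrated genes were read first as a check of the labels. Mcam rose in C2C12iMcam cells from between 17.1 and 19.8 CPM without dox to between 69.0 and 74.7 CPM with dox (adjusted p = 0.00012, edgeR). Cdh23 in C2C12iCdh23 cells was already between 348 and 451 CPM without dox and between 426 and 568 CPM with dox, which overlapped (log2 fold change 0.32, adjusted p = 0.1, edgeR). Myod1, which could hold reads of the transgene only as far as they match its annotated transcripts, was between 178 and 197 CPM with dox and between 171 and 181 CPM without at 0 h, which overlapped. It was lower with dox at 24 h, between 111 and 124 CPM against between 130 and 139 CPM (log2 fold change -0.23, adjusted p = 0.0041, edgeR), and at 48 h, between 295 and 323 CPM against between 382 and 391 CPM (-0.36, adjusted p = 0.00045), so total Myod1 did not show the induction that the labels name. Both myotube-enriched libraries numbered 2 stood apart from their groups in 11 genes, other than the members, that were higher with dox at 48 h. The mean log2(CPM + 1) of these genes was 3.23 in the library labelled without dox, against 1.88 and 2.07 in the other two without dox, and 2.07 in the library labelled with dox, against 3.69 and 3.67. Each of these 2 libraries thus lay nearer to the group with the other dox label, their labels are in doubt, and whether they were exchanged was not tested. Tests of the myotube-enriched fraction, and transcript shares, ranks and likeness over groups, are given with and without them.

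Adgrg1 lies on chromosome 8 (GRCm38, 94974751 to 95014217, plus strand), and the tables list 2 of its transcripts. Between 99.5% and 100% of its estimated count in a group was assigned to Adgrg1-201, which starts at position 94984371, and at most 0.496% to Adgrg1-202, which starts at position 94977107. RefSeq's promoter table (GRCm38.p6) held 7 of the 10 members, with 10 promoters of 250 bases before to 50 after a start, and both Adgrg1 promoters are shown, up to the base before these starts, since Adgrg1 had the widest range of levels of the members with a count in every library. Capitals mark CANNTG, the E-box that MyoD1 and related factors recognize, which reads as an E-box on both strands.

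Adgrg1-202, chr8:94976859-94977106 (plus strand): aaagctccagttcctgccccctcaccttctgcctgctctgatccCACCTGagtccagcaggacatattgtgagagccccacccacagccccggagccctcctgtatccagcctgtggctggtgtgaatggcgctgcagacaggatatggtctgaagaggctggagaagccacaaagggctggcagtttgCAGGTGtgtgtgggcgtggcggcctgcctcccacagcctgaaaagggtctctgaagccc
Adgrg1-201, chr8:94984149-94984370 (plus strand): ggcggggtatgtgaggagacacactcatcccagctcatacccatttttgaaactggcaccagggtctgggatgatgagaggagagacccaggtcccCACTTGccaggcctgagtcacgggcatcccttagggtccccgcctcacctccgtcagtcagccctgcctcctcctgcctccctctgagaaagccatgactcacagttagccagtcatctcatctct

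The window of Adgrg1-202 held CACCTG and CAGGTG, and that of Adgrg1-201, to which nearly the whole count was assigned, held CACTTG. Neither window held CAGCTG, which was in 16.3% of all 32851 promoters of 300 bases, whereas CANNTG was in 72.3% of them and CACCTG or its complement CAGGTG in 20.2%. Among the promoters of the other members, CAGCTG was found in 1 of the 3 of Adgrl3 and in that of Adgrg6. Those of Adgrl1 and Adgrb2 held no CANNTG.

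Adgrg1 had the lowest levels in C2C12iMyoD1 cells at 24 h without dox and the highest in C2C12iCdh23 cells at 48 h with dox, an 80.1-fold range between group means. At 0 h, its 3 libraries without dox were between 14.2 and 16.5 CPM and those with dox at 137, 126 and 121 CPM with dox. The difference was 3.08 ± 0.08 on the log2 scale (± SE, n = 3 in each group). At 24 h, the libraries without dox held 4.47, 5.11 and 4.88 CPM and those with dox 102, 110 and 116 CPM, a log2 fold change of 4.47 ± 0.08. Every library with dox was above every library without dox at both times, which is the pattern that Adgrg1 was chosen by.

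**Figure D1:**
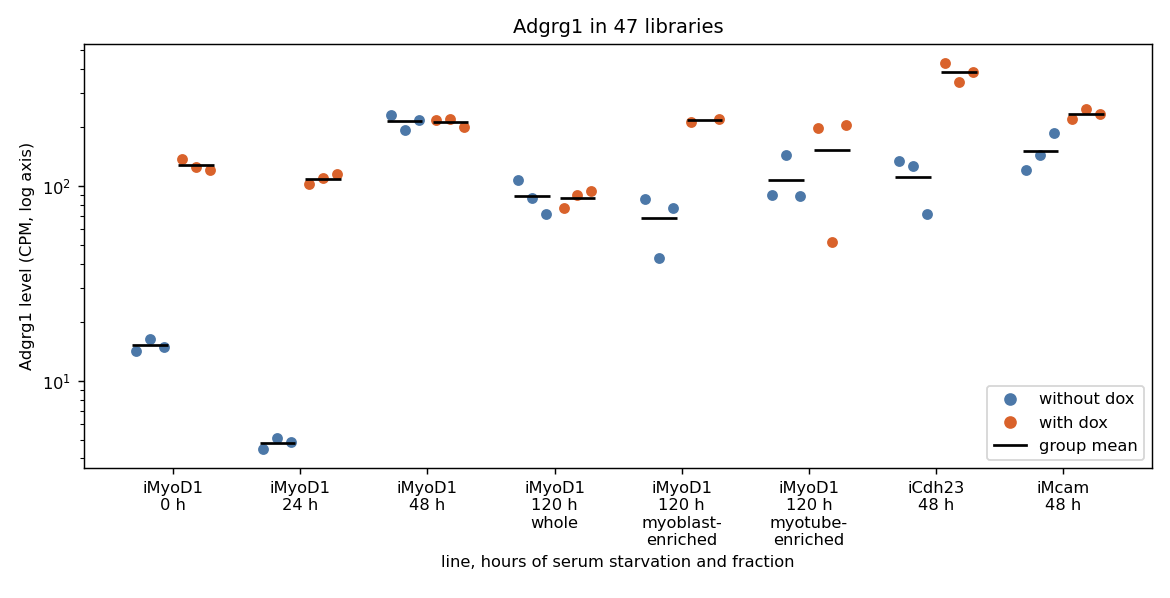
Adgrg1 level (CPM, log axis) in each library, by line, hours of serum starvation and fraction. Points are libraries without (blue) and with dox (orange), and black lines are group means. The groups were apart at 0 and 24 h, overlapped at 48 h and 120 h in whole C2C12iMyoD1 cultures, and were apart again in the myoblast-enriched fraction and in the C2C12iCdh23 and C2C12iMcam lines.

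In the libraries that the choice did not use, the Adgrg1 difference was not seen at 48 h in the same line. Adgrg1 was at 232, 195 and 218 CPM without dox and at 218, 220 and 202 CPM with dox, and the groups overlapped (log2 fold change -0.03 ± 0.07, adjusted p = 0.76, edgeR). Whole cultures at 120 h also overlapped, at 108, 86.6 and 71.6 CPM without dox and 76.9, 89.8 and 94.6 CPM with dox (-0.04 ± 0.15, adjusted p = 0.84). The dox effects at 120 and 48 h differed by -0.01 ± 0.18 (adjusted p = 0.99).

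Of the other members at 0 and 24 h, the latrophilins, which bind teneurins and Flrt proteins on neighboring cells, differed in direction. Adgrl1 was at 179, 176 and 169 CPM without dox and at 283, 269 and 261 CPM with dox at 0 h, and at 68.8, 66.3 and 56.8 CPM against 191, 178 and 189 CPM at 24 h. Its log2 fold changes were 0.64 ± 0.05 and 1.52 ± 0.07. Adgrl3 was lower with dox at both times (-0.91 ± 0.09 and -0.77 ± 0.11), as was Adgrl2 (-0.38 ± 0.07 and -0.69 ± 0.06), with no overlap between groups. Adgre5 (CD97), a receptor of the complement regulator Cd55, was higher with dox by 0.83 ± 0.06 at 24 h, at 144, 144 and 156 CPM against 87.3, 81.4 and 76.8 CPM, and by 0.13 ± 0.06 at 0 h. Adgra2, a coreceptor of Wnt7 signaling, differed by 0.15 ± 0.08 and 0.11 ± 0.08, and Adgrg6, which binds collagen IV and laminin, by -0.23 ± 0.07 and 0.05 ± 0.07. The summed fibroblast markers were between 2590 and 2730 CPM without dox and between 1550 and 1700 CPM with dox at 0 h, and between 814 and 854 CPM and between 353 and 373 CPM at 24 h. The proliferating myoblast markers were at 2580 CPM and between 2330 and 2350 CPM at 0 h, and between 634 and 685 CPM and between 661 and 672 CPM at 24 h. The 10 myotube markers together did not exceed 10.2 CPM at either time. Of the 5 fibroblast markers, 3 were at 1 CPM or more in each group at these times. Whether these sums mark separate cell types in a line of myoblasts was not tested, nor was their part in the differences of Adgrg1 and the other members.

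**Figure D2:**
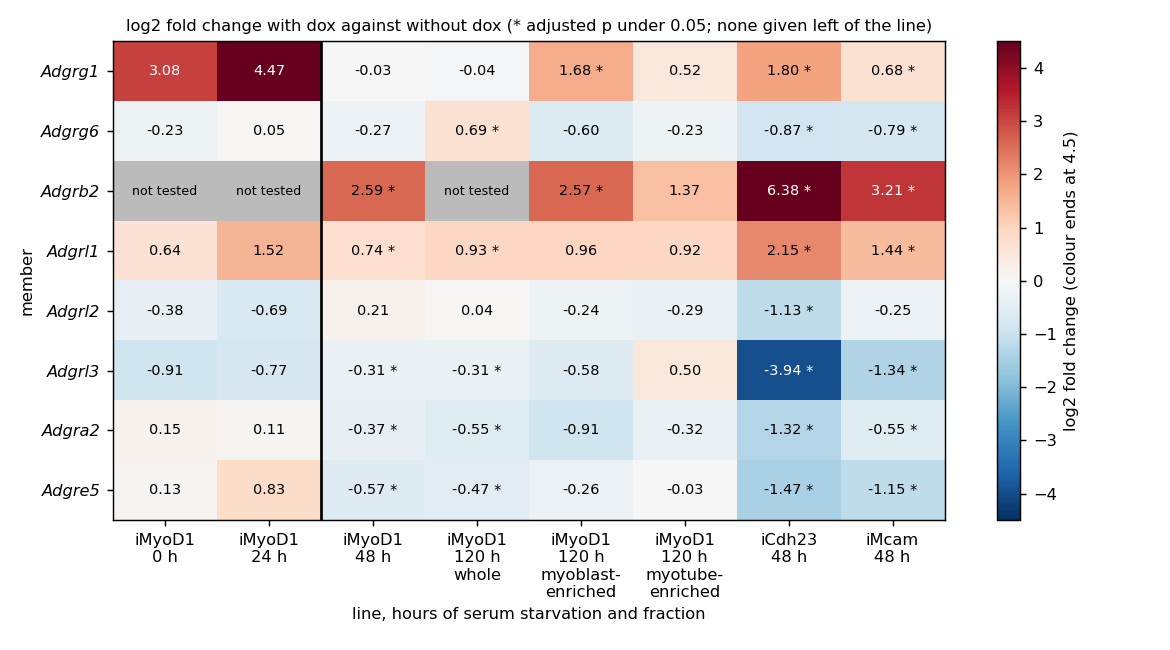
log2 fold change with dox against without dox for the 8 members that passed the low-count filter in at least 1 comparison, by line, time and fraction. Red is higher and blue lower with dox, asterisks mark an adjusted p under 0.05 right of the line (for Adgrb2, a gene that passed the filter through the libraries with dox), and grey marks comparisons in which the member was not tested. Adgrl1 was above 0 in all 8 columns, although not past the threshold in either fraction, and Adgrg1 was largest in the 2 columns it was chosen by.

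At 48 h in C2C12iMyoD1 cells, Adgrl1 rose with dox and Adgre5, Adgrl3 and Adgra2 fell. Leaving aside Adgrb2, described further on, these were 1 of 7 tested members higher, where 27.9% of 13871 genes were, and 3 of 7 lower, where 28.7% were. Adgrl1 was at 143, 151 and 141 CPM without dox and at 266, 218 and 250 CPM with dox, without overlap (0.74 ± 0.08, adjusted p = 2.8e-05, edgeR). Adgre5 was at 430, 423 and 412 CPM without dox and at 299, 289 and 273 CPM with dox, also without overlap (-0.57 ± 0.06, adjusted p = 2e-05). Adgrl3 fell by 0.31 (SE 0.08, adjusted p = 0.0052) and Adgra2 by 0.37 (SE 0.10, adjusted p = 0.007). The median log2 fold change was -0.27 over these 7 members and 0.011 over all genes tested.

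Adgre5 had the opposite sign at 24 and at 48 h. It shares 895 of 3757 exonic bases (23.8%) with Ddx39, an RNA helicase gene on the opposite strand that was between 47.7 and 545 CPM, and whether counting used the strand is not given in the sources used here. In the same 48 h libraries, the summed myotube markers were between 13400 and 14600 CPM without dox and between 5300 and 5450 CPM with dox, with all 10 at 1 CPM or more in both groups, and the summed fibroblast markers, all 5 of them detected, between 3490 and 3660 CPM and between 1190 and 1320 CPM. The 10 proliferating myoblast markers summed to between 1230 and 1260 CPM and between 571 and 582 CPM. Their part in the members' differences was not tested. In bulk libraries, fewer cells of a type and less RNA per cell cannot be told apart.

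Adgrb2, the brain-enriched BAI2, was near the limit of detection without dox. At 48 h, it had 2, 4 and 4 counts without dox and 41, 41 and 31 counts with dox, a ratio of 5.87 (95% interval 3.08 to 12.6 from the exact binomial method, for counting error only) and a fitted log2 fold change of 2.59 ± 0.44 (adjusted p = 0.00053, edgeR). In the 4 comparisons with dox in which Adgrb2 is called, it passed the low-count filter only through the libraries with dox, the groups in which it is high, so it is left out of the counts of members there. With no such filter, its adjusted p was 1.2e-05 at 48 h in C2C12iMyoD1 cells, 0.0015 in the myoblast-enriched fraction, 2.6e-08 in C2C12iCdh23 and 2.4e-05 in C2C12iMcam cells. A floor of 3 counts corresponded to between 0.0605 and 0.201 CPM per library. Adgrb1 had at most 11 counts in a library and a count in 23 of 47 libraries, and Adgrb3 had 1 count in 1 of 47 libraries, so neither passed the low-count filter in any comparison. Adgrb1 had 6, 5 and 5 counts with dox and 0, 1 and 1 without dox at 0 h, and 8, 6 and 4 with dox and 2, 1 and 0 without dox in C2C12iCdh23 cells at 48 h, which with no such filter had an adjusted p of 0.07 (edgeR). In C2C12iMyoD1 cells at 48 h, it had 0 counts in each of the 6 libraries. Both receptors known for myoblast fusion thus lay at or near the floor at every time, and a level below it was not detectable at this depth.

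At 120 h in whole cultures, Adgrl1 and Adgrg6 rose with dox, 2 of 7 tested members where 21.4% of 13628 genes rose, and Adgre5, Adgra2 and Adgrl3 fell, 3 of 7 where 23.7% fell. Adgrl1 was at 152, 128 and 118 CPM without dox and at 219, 286 and 259 CPM with dox, without overlap (0.93 ± 0.13, adjusted p = 0.00037, edgeR). Adgrg6 was at 23.0, 21.2 and 24.8 CPM without dox and at 41.5, 34.4 and 36.2 CPM with dox (0.69 ± 0.12, adjusted p = 0.0017). Adgrg6 had not passed at 48 h (-0.27 ± 0.15, adjusted p = 0.16), and its dox effects at the 2 times differed by 0.96 ± 0.21 (adjusted p = 0.0029), the only 1 of 7 members other than Adgrb2 to do so, where 16.8% of 14734 genes had a higher effect at 120 h and 17.2% a lower one. Adgre5 fell by 0.47 (SE 0.10, adjusted p = 0.0053). The calls of Adgra2 (-0.55 ± 0.16, adjusted p = 0.021) and Adgrl3 (-0.31 ± 0.10, adjusted p = 0.031) rested on single libraries. Without replicate 2 without dox, or replicate 1 or 3 with dox, neither passed, and Adgrl3 also did not without replicate 3 without dox or replicate 2 with dox. In these libraries the summed fibroblast markers were between 1590 and 2810 CPM without dox and between 932 and 1040 CPM with dox, the proliferating myoblast markers between 295 and 326 CPM and between 516 and 589 CPM, and the myotube markers between 16500 and 18900 CPM and between 12700 and 14700 CPM, and their part was not tested.

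**Figure D3:**
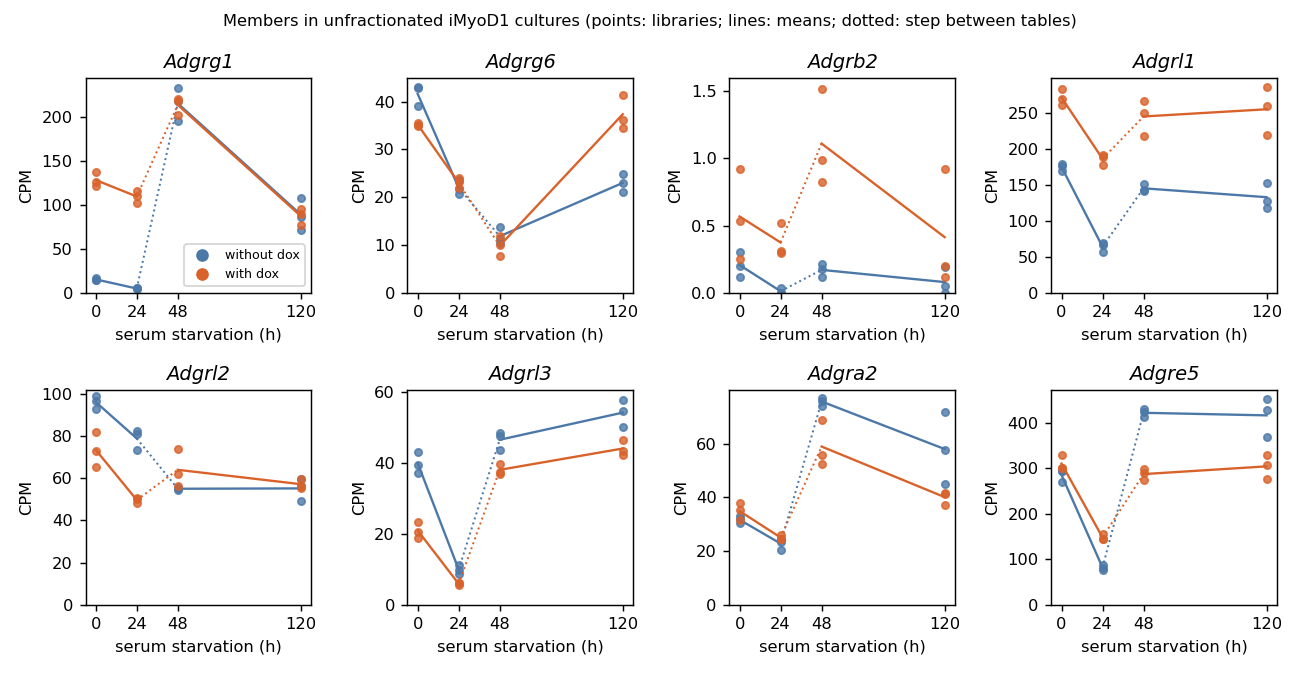
Levels (CPM) of 8 members in unfractionated C2C12iMyoD1 cultures over 0 to 120 h of serum starvation, without (blue) and with dox (orange). Points are libraries and lines join group means, dotted where the step runs between 2 tables. Without dox, Adgrg1 went from between 4.47 and 5.11 CPM at 24 h to between 195 and 232 CPM at 48 h, and Adgrg6 was lowest at 48 h.

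Native differentiation was followed in the libraries without dox. From 0 to 24 h, the 6 tested members other than Adgrg1 all fell, where 37.0% of 13632 genes fell and 37.3% rose. Adgre5 went from 293, 294 and 269 CPM to 87.3, 81.4 and 76.8 CPM (-1.77 ± 0.06, adjusted p = 1.7e-11, edgeR), Adgrl3 from 43.0, 39.4 and 37.2 CPM to 11.1, 9.89 and 8.76 CPM (-1.97 ± 0.10, adjusted p = 2.9e-10), and Adgrl1 from 179, 176 and 169 CPM to 68.8, 66.3 and 56.8 CPM (-1.42 ± 0.07, adjusted p = 4.3e-10), each without overlap. Adgrg6 (-0.89 ± 0.07), Adgra2 (-0.44 ± 0.08) and Adgrl2 (-0.25 ± 0.06) fell less. Adgrg1, for which no test is given here because it was chosen on these libraries, was lower at 24 h by 1.62 ± 0.12. The median was -1.16 over the 6 members and 0.014 over all genes. Over the same step, the summed proliferating myoblast markers went from 2580 CPM to between 634 and 685 CPM and the fibroblast markers from between 2590 and 2730 CPM to between 814 and 854 CPM, and their part was not tested.

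From 24 to 48 h, 4 of these 6 members rose, where 38.4% of 14017 genes rose, and 2 fell, where 38.4% fell. Adgre5 (2.37 ± 0.06, adjusted p = 8.7e-13, edgeR), Adgrl3 (2.23 ± 0.09, adjusted p = 6.9e-11), Adgra2 (1.74 ± 0.07, adjusted p = 1.1e-10) and Adgrl1 (1.18 ± 0.07, adjusted p = 6.4e-09) rose, and Adgrg6 (-0.89 ± 0.11, adjusted p = 5.7e-06) and Adgrl2 (-0.51 ± 0.06, adjusted p = 4.9e-06) fell. Adgrg1 was higher at 48 h by 5.48 ± 0.09 and did not overlap. The 24 and 48 h libraries lie in separate tables, so batch and interval cannot be told apart here. The summed myotube markers went from at most 9.28 CPM to at least 13400 CPM over the same step, the fibroblast markers from at most 854 CPM to at least 3490 CPM and the proliferating myoblast markers from at most 685 CPM to at least 1230 CPM, and their part was not tested.

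From 48 to 120 h, within 1 table, Adgrg1 fell from 232, 195 and 218 CPM to 108, 86.6 and 71.6 CPM (-1.26 ± 0.14, adjusted p = 5.1e-05, edgeR), and Adgrg6 rose from 11.3, 13.7 and 10.5 CPM to 23.0, 21.2 and 24.8 CPM (0.98 ± 0.13, adjusted p = 0.00018). These were 1 of 7 members lower, where 34.1% of 13786 genes were, and 1 of 7 higher, where 33.0% were. Adgrl1 (-0.11 ± 0.10), Adgrl2 (0.02 ± 0.10) and Adgre5 (0.00 ± 0.09) overlapped between the times. Without replicate 1 at 120 h, 5 members passed in place of 2, and 71.1% of all genes in place of 67.1%. Over this step, the summed proliferating myoblast markers went from between 1230 and 1260 CPM to between 295 and 326 CPM, the fibroblast markers from between 3490 and 3660 CPM to between 1590 and 2810 CPM and the myotube markers from between 13400 and 14600 CPM to between 16500 and 18900 CPM, and their part was not tested. Transcript shares set the whole cultures at 120 h apart from all other groups: Adgrl2-203 took between 0.0% and 1.69% of the Adgrl2 count there against between 5.27% and 40.9% elsewhere, and the retained-intron transcript Adgrl3-228 between 0.19% and 0.937% of the Adgrl3 count against between 4.61% and 44.1%, or 52.9% without the libraries in doubt. Its part in the changes toward 120 h was not tested.

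The myoblast-enriched fraction addressed whether the cells that passed the filter at 120 h keep a response to dox. It held myotube transcripts, with all 10 markers at 1 CPM or more. There, Adgrg1 was at 86.2, 42.6 and 76.9 CPM without dox and at 214 and 222 CPM with dox, without overlap (1.68 ± 0.27, adjusted p = 0.024, edgeR). Adgrb2 had 4, 4 and 4 counts without dox and 21 and 32 with dox, a ratio of 6.11 (95% interval 3.23 to 12.6) and a log2 fold change of 2.57 ± 0.44 (adjusted p = 0.028). Apart from Adgrb2, these were 1 of 7 members higher, where 1.82% of 14249 genes were, and 0 of 7 lower, where 2.52% were. With 3 against 2 libraries, 40.6% of 14249 genes had no overlap between groups. Another 4 of 7 members had none and missed the threshold: Adgrl1 (0.96 ± 0.26, adjusted p = 0.087), Adgrg6 (-0.60 ± 0.15, adjusted p = 0.07), Adgra2 (-0.91 ± 0.27, adjusted p = 0.11) and Adgrl3 (-0.58 ± 0.19, adjusted p = 0.13). With 2 libraries with dox, the calls over all genes depended on each of them: 0.0% of genes passed without replicate 2 with dox, 0.0956% without replicate 3 with dox and 0.0% without replicate 3 without dox, and no member did. Without Adgrb2, DESeq2 called 4 members, where 11.2% of all genes passed, and a fit with no low-count filter 5, where 8.65% did, against 1 member and 4.34% of genes above. Summed fibroblast markers were between 3580 and 4990 CPM without dox and between 1600 and 1890 CPM with dox in this fraction, all 5 detected, the myotube markers between 5760 and 9360 CPM and between 5430 and 5690 CPM, and the proliferating myoblast markers between 578 and 1260 CPM and between 537 and 893 CPM, and their part in the members' differences was not tested.

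**Figure D4:**
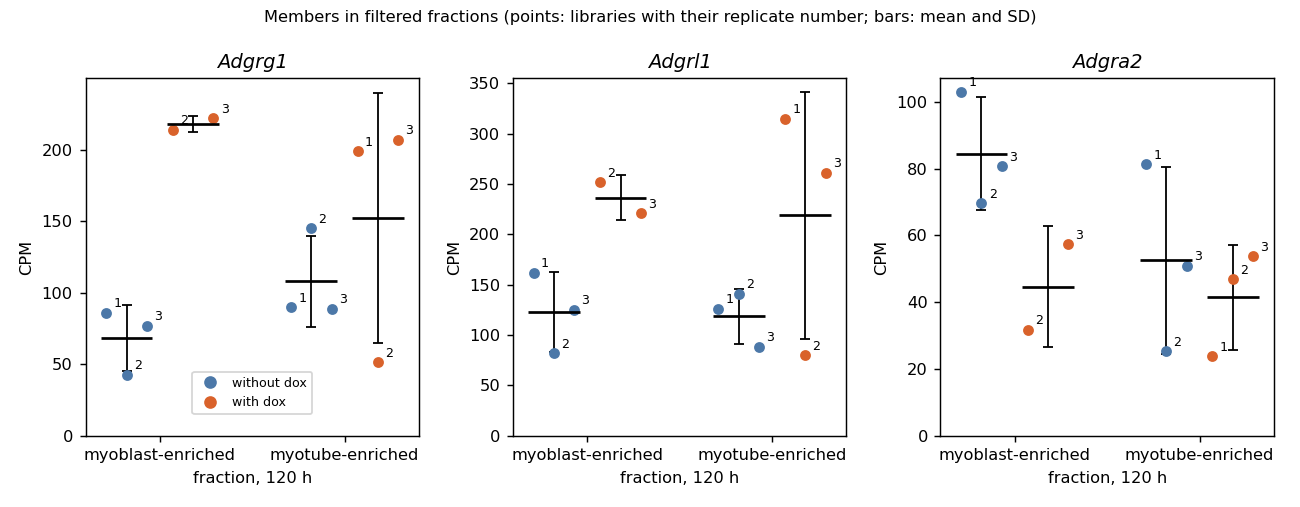
Levels (CPM) of Adgrg1, Adgrl1 and Adgra2 in the filtered fractions at 120 h, without (blue) and with dox (orange). Points are libraries with their replicate numbers, and bars are the mean and SD (n = 3, or 2 in the myoblast-enriched fraction with dox). Adgrg1 was at 51.5 CPM in the myotube-enriched library labelled replicate 2 with dox, against 199 and 207 CPM in the other two, and at 145 CPM in replicate 2 without dox, against 90.1 and 88.9 CPM.

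In the myotube-enriched fraction, none of 8 tested members passed, nor did any of 14112 genes (0.0% in either direction), by edgeR, and DESeq2 also called no member. No member had an unadjusted p under 0.05. Adgrg1 was at 90.1, 145 and 88.9 CPM in the libraries labelled without dox and at 199, 51.5 and 207 CPM in those labelled with dox (0.52 ± 0.51, adjusted p = 1.0), and Adgrl1 at 126, 141 and 88.3 CPM and at 315, 80.2 and 261 CPM (0.92 ± 0.49, adjusted p = 1.0). Replicate 2 with dox was the lowest library of both genes in its group and replicate 2 without dox the highest. Without these libraries, which leaves 2 against 2, Adgrg1 differed by 1.22 ± 0.32 and Adgrl1 by 1.46 ± 0.38, each without overlap and at an adjusted p of 0.37 (edgeR). Their unadjusted p was 0.008 and 0.0071 by edgeR, 2 of 7 members under 0.05 where 9.02% of all genes tested were. The libraries were left out after seeing that genes higher with dox ran against their labels. That choice favors a larger difference for any gene that responds to dox, so these values are a description and not a test. Adgrb2, which passed the filter only through the libraries labelled with dox, was at 1.01 CPM in these and at 0.148 CPM without dox. Still none of 14160 genes passed (0.0% in either direction).

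The dox effects of the 2 fractions were not shown to differ for any member. The difference for Adgrg1, myotube- minus myoblast-enriched, was -1.18 ± 0.68, and -0.49 ± 0.41 without the libraries that stood apart. With or without them, edgeR called 0.0% of 15008 or 14830 genes in either direction, no member had an unadjusted p under 0.05, and DESeq2 called no member with all libraries. Between the fractions without dox, 0 of 7 members passed, where 0.578% of 14023 genes were higher and 0.0143% lower in the myotube-enriched fraction. DESeq2, which called 5.32% of 14392 genes, also called no member. Adgrg1 was higher in it by 0.68 ± 0.30 (adjusted p = 0.32, edgeR) and Adgre5 lower by 0.45 ± 0.17 (adjusted p = 0.26). Adgre5 was the 1 of 7 members with an unadjusted p under 0.05, where 16.1% of all genes had one. Without the library that stood apart, these were 0.40 ± 0.28 and -0.41 ± 0.19, and 0.308% of 14274 genes were higher and 0.021% lower.

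The C2C12iCdh23 and C2C12iMcam lines addressed the effect of dox in cells whose integrated gene is an adhesion gene. In C2C12iCdh23 cells, Cdh23 itself overlapped between the groups, so the differences are those between cultures with and without dox, not shown to follow a rise of Cdh23. At 48 h, each of the 7 tested members other than Adgrb2 passed: 2 rose with dox, where 31.3% of 14227 genes rose, and 5 fell, where 32.4% fell. Adgrg1 was at 134, 127 and 72.2 CPM without dox and at 427, 344 and 386 CPM with dox (1.80 ± 0.23, adjusted p = 0.00039, edgeR). Adgrl1 was at 183, 141 and 150 CPM without dox and at 809, 619 and 678 CPM with dox, its highest level in any group (2.15 ± 0.16, adjusted p = 2.5e-05). Adgrb2 had 2, 2 and 3 counts without dox and 235, 272 and 248 with dox, a ratio of 86.9 (95% interval 42.0 to 217), and its level with dox, 9.22 ± 0.513 CPM (SD, n = 3), was the highest of the 16 groups. All 3 were without overlap between the groups.

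Adgrl3 fell most in C2C12iCdh23 cells, from 79.4, 61.0 and 49.3 CPM to 6.38, 3.21 and 2.92 CPM (-3.94 ± 0.33, adjusted p = 4.8e-05, edgeR). Adgre5 went from 389, 453 and 623 CPM to 183, 158 and 187 CPM (-1.47 ± 0.18, adjusted p = 0.00032) and Adgra2 from 73.5, 73.7 and 101 CPM to 37.5, 28.0 and 33.8 CPM (-1.32 ± 0.17, adjusted p = 0.00035). Adgrl2 fell by 1.13 (SE 0.28, adjusted p = 0.0092) and Adgrg6 by 0.87 (SE 0.15, adjusted p = 0.0017). Adgre5 and Adgrl1, which moved in opposite directions, are neighbors on chromosome 8, 159 kb apart. The summed myotube markers were between 4980 and 9620 CPM without dox and between 38.7 and 130 CPM with dox, 8 of 10 at 1 CPM or more, and the summed fibroblast markers between 2100 and 3320 CPM and between 139 and 193 CPM, 4 of 5 at 1 CPM or more. The proliferating myoblast markers summed to between 874 and 1120 CPM and between 183 and 230 CPM. Their part in the members' differences was not tested.

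**Figure D5:**
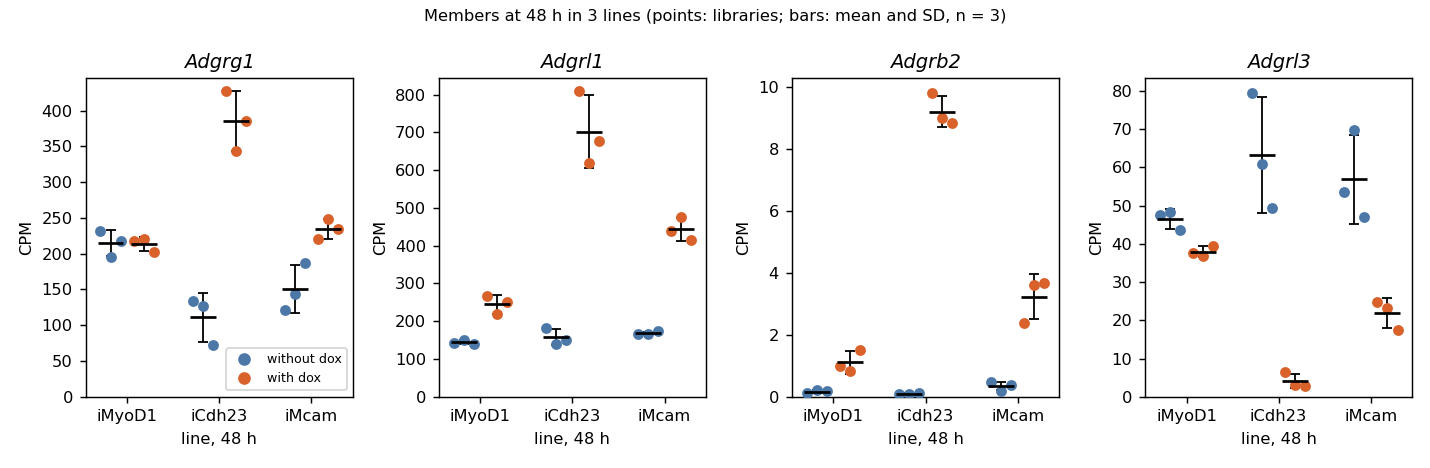
Levels (CPM) of Adgrg1, Adgrl1, Adgrb2 and Adgrl3 at 48 h in 3 lines, without (blue) and with dox (orange). Points are libraries and bars the mean and SD (n = 3). Adgrl1 and Adgrb2 were higher and Adgrl3 lower with dox in each line, and Adgrg1 differed in C2C12iCdh23 and C2C12iMcam cells but overlapped in C2C12iMyoD1 cells.

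In C2C12iMcam cells, 6 of 7 members other than Adgrb2 passed, 2 higher (24.2% of 13730 genes) and 4 lower (24.8%). Adgrg1 was at 121, 144 and 187 CPM without dox and at 221, 249 and 234 CPM with dox (0.68 ± 0.15, adjusted p = 0.0085, edgeR), Adgrl1 at 165, 166 and 173 CPM and at 440, 475 and 415 CPM (1.44 ± 0.09, adjusted p = 0.00013). Adgrb2 had 8, 3 and 7 counts without dox and 49, 71 and 80 with dox (ratio 9.12, 95% interval 5.63 to 15.7, adjusted p = 0.00052). Adgrl3 (-1.34 ± 0.19, adjusted p = 0.0013), Adgre5 (-1.15 ± 0.17, adjusted p = 0.0015), Adgrg6 (-0.79 ± 0.12, adjusted p = 0.0017) and Adgra2 (-0.55 ± 0.09, adjusted p = 0.0028) fell, and Adgrl2 overlapped (-0.25 ± 0.28, adjusted p = 0.49). The summed myotube markers were between 3630 and 9600 CPM without dox and between 477 and 1640 CPM with dox, all 10 at 1 CPM or more, the fibroblast markers between 2740 and 4440 CPM and between 803 and 856 CPM, and the proliferating myoblast markers between 761 and 873 CPM and between 228 and 306 CPM, and their part was not tested.

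The dox effects of both lines were compared directly, within 1 table. In C2C12iMcam cells, the effect was weaker on Adgrb2 (difference -3.18 ± 0.48, adjusted p = 0.002, edgeR), Adgrg1 (-1.14 ± 0.30, adjusted p = 0.033) and Adgrl1 (-0.74 ± 0.18, adjusted p = 0.023), without Adgrb2 2 of 7 members lower where 3.03% of 14552 genes were. The Adgrb2 value rests on between 2 and 8 counts per library without dox. Adgrb2 passed the low-count filter here only through the libraries with dox, and with no such filter its adjusted p was 0.00066 (edgeR). The falls were smaller for Adgrl3 (2.58 ± 0.40, adjusted p = 0.0024) and Adgra2 (0.75 ± 0.20, adjusted p = 0.036), 2 of 7 higher where 7.61% were. When 1 library was left out, between 2 and 5 members passed with Adgrb2 counted, and between 6.2% and 11.5% of all genes. Adgrb2 and Adgrl3 passed each time, whereas Adgrg1 did not pass without replicate 1, 2 or 3 of C2C12iCdh23 cells with dox, replicate 2 or 3 of C2C12iMcam cells without dox, or any replicate of C2C12iMcam cells with dox. Adgrl1 did not without C2C12iCdh23 replicate 2 without dox, C2C12iMcam replicate 2 without dox, or C2C12iMcam replicate 1 or 3 with dox. Adgra2 did not without C2C12iCdh23 replicate 2 or 3 with dox, any C2C12iMcam replicate without dox, or C2C12iMcam replicate 1 or 2 with dox. No test was run of these lines against C2C12iMyoD1 cells, whose 48 h libraries lie in another table.

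To compare levels between genes, counts were divided by transcript length and given as TPM, which scales each library to the same sum. By this measure, Adgre5 was the highest member in 14 of 16 groups and Adgrg1 in the other 2, C2C12iCdh23 and C2C12iMcam cells with dox, where its libraries overlapped those of Adgrl1. In the myotube-enriched fraction labelled with dox, the libraries of Adgre5 overlapped those of Adgrg1. At 0 h without dox, the order was Adgre5, Adgrl1, Adgrl2, Adgrl3, Adgrg6, Adgra2, Adgrg1, Adgrb2, Adgrb1 and Adgrb3, and Adgrl1 and Adgrl2, Adgrg6 and Adgra2, and Adgrb1 and Adgrb3 were not separated by their libraries. With dox at 0 h, Adgrg1 ranked 3 and overlapped Adgrl1. The share of Adgrl1 assigned to Adgrl1-207 was between 81.3% and 97.8% over the groups. Without the libraries in doubt its highest share was 97.9%, and Adgre5 and Adgrg1 were again the highest member in 14 and 2 groups. The genes whose group means of log2(CPM + 1) were most like those of Adgrg1, among 10887 genes over 16 groups that share 3 tables and their depths, were Pald1 (Pearson r = 0.899), Nectin1 (0.886), Csrnp1 (0.875), Cog7 (0.872) and Slc12a4 (0.866). Without the libraries in doubt, 4 of these 5 were among the first 5, but by Spearman correlation only 1 of them was.

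Other genes of the pathway were read from 3 lists: 20 other aGPCRs, 37 ligands and membrane partners and 31 intracellular effectors. A gene that reached the filter's minimum of 10 counts, scaled to the median library, in too few libraries of 1 of the groups compared could be tested through the group in which it was high. This favors a difference between the groups. Such genes are left out of the counts and medians of the lists and of all genes here, and where they are named, their levels are given with no test. At 48 h in C2C12iMyoD1 cells, 1 of 6 other aGPCRs rose with dox and 3 fell (median -0.34, against 0.002 over all genes), 6 of 26 ligands and partners rose and 11 fell (median -0.12), and 10 of 31 effectors rose and 5 fell (median 0.11), where 28.3% of 12714 genes rose and 29.4% fell. Celsr1, a planar polarity cadherin, rose (1.58 ± 0.25, adjusted p = 0.0003, edgeR), and Adgrf4 (-1.63 ± 0.28, adjusted p = 0.00059) and Adgrg2 (-0.41 ± 0.15, adjusted p = 0.041) fell. Among ligands and partners, Flrt2, a ligand of latrophilins, fell from 68.0 to 21.0 CPM (-1.71 ± 0.11, adjusted p = 4e-07). Reck, the partner of Adgra2 in Wnt7 signaling, rose from 6.66 to 17.9 CPM (1.40 ± 0.14, adjusted p = 9.3e-06), and Rtn4rl1, of the Nogo receptor family that BAI receptors bind, rose (1.36 ± 0.18, adjusted p = 0.00011). Among effectors, Arrb2, a beta-arrestin, and Magi3, a scaffold that BAI receptors bind, rose (0.72 ± 0.09 and 0.72 ± 0.10), and the guanine nucleotide exchange factor Trio fell (-0.65 ± 0.14, adjusted p = 0.0023).

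In C2C12iCdh23 cells, 1 of 4 other aGPCRs rose with dox and 2 fell (median -0.92), 4 of 24 ligands and partners rose and 16 fell (median -0.64), and 13 of 31 effectors rose and 4 fell (median 0.25), with a median of -0.013 over 12469 genes, of which 30.8% rose and 32.2% fell. Col3a1, the collagen that binds Adgrg1, fell from 6080 to 636 CPM (-3.26 ± 0.12, adjusted p = 4.9e-06, edgeR), and Col4a1, of the collagen that binds Adgrg6, from 533 to 66.4 CPM (-3.00 ± 0.16). C1ql4, a secreted ligand of Adgrb3 that was tested only through the libraries with dox, was at 0.0954 CPM without and 4.06 CPM with dox, while Adgrb3 itself had 0 counts. Elmo1, which links BAI receptors to Rac, fell from 26.6 to 1.85 CPM (-3.84 ± 0.27), and Arrb2 (1.87 ± 0.11) and Arhgef11, an exchange factor downstream of G12/13 proteins (1.32 ± 0.14), rose. Adgrf4, Adgrl4 and Adgra1, tested only through the libraries without dox, were at 3.00, 2.70 and 1.76 CPM without and 0.107, 0.206 and 0.241 CPM with dox.

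In C2C12iMcam cells, the counts were 1 of 5 higher and 2 lower, 4 of 24 higher and 9 lower, and 10 of 31 higher and 3 lower for the 3 lists (medians -0.58, -0.26 and 0.13, against 0.011 over 12453 genes, of which 24.2% were higher and 25.3% lower). Reck (1.84 ± 0.17), Rtn4rl1 (1.53 ± 0.30), Celsr1 (2.16 ± 0.25), Arrb2 (1.12 ± 0.11), Arhgef11 (0.90 ± 0.13) and Magi3 (0.80 ± 0.12) rose, and Flrt2 (-1.66 ± 0.15) and Adgrl4 (-1.31 ± 0.23) fell, each at an adjusted p of 0.0046 or less by edgeR. Adgra1, tested only through the libraries without dox, was at 1.86 CPM without and 0.307 CPM with dox. The difference between the dox effects of C2C12iMcam and C2C12iCdh23 cells passed in the higher direction for 1 of 4 other aGPCRs, 6 of 23 ligands and partners and 1 of 31 effectors, where 7.31% of 12103 genes did, and in the lower for 2 of 31 effectors, where 3.12% did.

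Whole C2C12iMyoD1 cultures at 120 h had 0 of 6 other aGPCRs higher with dox and 2 lower, 7 of 22 ligands and partners higher and 8 lower, and 11 of 30 effectors higher and 4 lower (medians -0.24, -0.15 and 0.18, against -0.020 over 12201 genes, of which 21.5% were higher and 24.8% lower). The teneurin Tenm4, a ligand of latrophilins, fell from 71.8 to 5.45 CPM (-3.73 ± 0.19, adjusted p = 1.2e-06, edgeR), Unc5b, which binds Flrt proteins, fell from 218 to 62.0 CPM (-1.83 ± 0.19, adjusted p = 7.1e-05), and Cd55, the ligand of Adgre5, rose from 4.96 to 19.6 CPM (1.97 ± 0.16, adjusted p = 2e-05). Gnai1 (1.37 ± 0.27), Arrb2 (1.31 ± 0.22) and Magi3 (1.17 ± 0.09) rose, and Adgrf4 fell (-2.25 ± 0.44, adjusted p = 0.0028). Adgrd1 and Adgra1, tested only through the libraries without dox, were at 2.11 and 1.74 CPM without and 0.137 and 0.298 CPM with dox. Against 48 h, the dox effect was higher for 1 of 5 other aGPCRs, 4 of 22 ligands and partners and 7 of 30 effectors, where 18.8% of 11862 genes were, and lower for 7 of 22 ligands and partners and 3 of 30 effectors, where 20.1% were. In the myoblast-enriched fraction, 0 of 26 ligands and partners rose and 2 fell, Col3a1 (-1.40 ± 0.19, adjusted p = 0.019) and Flrt2 (-1.34 ± 0.13, adjusted p = 0.01), and of 31 effectors Arrb2 rose (0.90 ± 0.17, adjusted p = 0.035), where 1.75% of 13219 genes rose and 2.52% fell. No gene of the lists passed in the myotube-enriched fraction, between the fractions without dox, or in the difference between the fractions, with or without the libraries that stood apart, by edgeR.

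Without dox, from 0 to 24 h, 3 of 3 other aGPCRs fell, 1 of 21 ligands and partners rose and 18 fell, and 4 of 30 effectors rose and 22 fell (medians -0.83, -1.23 and -0.40, against 0.039 over 12306 genes, of which 39.2% rose and 36.5% fell). Adgrg2 fell (-2.25 ± 0.15). Celsr1 and Adgrl4, tested only through the 0 h libraries, were at 2.41 and 2.02 CPM at 0 h and 0.396 and 0.374 CPM at 24 h. The latrophilin ligands Tenm2, Tenm4 and Flrt1, tested only through the 24 h libraries, were at 0.0166, 0.0699 and 0.346 CPM at 0 h and at 34.0, 13.4 and 3.84 CPM at 24 h. Elmo1 rose from 6.17 to 53.4 CPM (3.15 ± 0.08), whereas Arrb1 fell from 46.8 to 4.19 CPM (-3.44 ± 0.11) and Dock5 from 114 to 29.5 CPM (-1.91 ± 0.06, adjusted p = 7e-12, edgeR).

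From 24 to 48 h, between tables, 2 of 3 other aGPCRs rose and 0 fell, 18 of 22 ligands and partners rose and 2 fell, and 16 of 30 effectors rose and 6 fell (medians 0.72, 1.33 and 0.30, against -0.055 over 12180 genes, of which 36.5% rose and 40.5% fell). Col4a1 (5.45 ± 0.08) and Lama2 (5.33 ± 0.11), both of proteins that bind Adgrg6, rose. Tenm2, tested only through the 24 h libraries, was at 34.0 CPM at 24 h and at 0 counts in all 3 libraries at 48 h, and Adgrf4, tested only through the 48 h libraries, was at 0.0115 and 2.20 CPM. Adgrg2 (1.95 ± 0.16), Adgra3 (0.72 ± 0.06), Arrb1 (2.63 ± 0.13) and Gnai1 (1.97 ± 0.15) rose, and Elmo1 fell (-2.32 ± 0.08). From 48 to 120 h, 2 of 6 other aGPCRs rose and 2 fell, 10 of 22 ligands and partners rose and 5 fell, and 9 of 31 effectors rose and 10 fell (medians 0.08, 0.17 and -0.06, against 0.017 over 12165 genes, of which 35.0% rose and 32.5% fell). Tenm4 rose from 2.72 to 71.8 CPM (4.74 ± 0.15, adjusted p = 1.4e-07, edgeR), Trio from 123 to 399 CPM (1.72 ± 0.10) and Arhgef12 from 82.1 to 216 CPM (1.42 ± 0.10). The Nogo receptor Rtn4r (-3.32 ± 0.30), Gnai1 (-1.86 ± 0.19) and Adgrg3, which flanks Adgrg1 (-1.55 ± 0.22), fell. Adgrd1 and Adgrf3, tested only through the 120 h libraries, were at 0.194 and 0.653 CPM at 48 h and 2.11 and 2.46 CPM at 120 h, and Rtn4rl1, tested only through the 48 h libraries, was at 1.97 and 0.188 CPM.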

How the data were processed

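PolyA RNA-seq of 47 libraries in 16 groups was used. The authors ran nf-core/rnaseq and deposited 3 tables of estimated counts, made by salmon for each transcript, with mm10 named in the submitters' processing notes. The annotation is not given in the sources used here, and GENCODE vM21 (GRCm38), which matched 98.72% of transcripts, gave positions and lengths. Estimated counts, of which between 30.97% and 34.36% were not whole, were summed per gene and rounded, and the total was between 15066338 and 50950674 per library. Symbols were found for 98.77% of 45706 genes. Groups came from the labels. With edgeR 4.0.16 in R 4.3.3, each comparison was fitted on its own groups (filterByExpr, TMM, quasi-likelihood test, Benjamini-Hochberg adjustment over all genes tested), and a gene passed at an adjusted p under 0.05. SEs came from the F statistic. Members and lists were chosen with earlier results of these data known. From the lists, at most 3 genes per list and comparison were named, those with the largest log2 fold change among genes that passed, had a mean of at least 1 CPM and did not overlap. Elmo1, Col3a1 and the like are therefore extremes of their lists.

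Each result was recomputed with RLE normalization, with DESeq2 1.42.0, without the filter on low counts, in 1 fit of all libraries, with the replicate number as a block, with each library left out, and, chosen after seeing the data, both myotube-enriched libraries numbered 2 left out. Deviations of same-numbered libraries correlated over 0.1 in every one of 3 pairs for C2C12iMcam cells (0.362, 0.227 and 0.419) and for the fractions without dox (0.413, 0.117 and 0.189), where the block changed no call of a member. Both pairs of the myoblast-enriched fraction with and without dox also did (0.431 and 0.3). There, the block moved the members passing, with Adgrb2 counted, from 2 to 6 and the share of all genes from 4.34% to 28.4%. The fractions were filtered from cultures of the same line and treatment, and whether a number marks 1 culture is not given in the sources used here. The chi-square per gene ran from 2.95 to 377 over 46 pairs of replicates, and no library was taken as a copy of another. Tested on simulated data for C2C12iMyoD1 at 48 h, 99 of 100 genes changed by 1 on the log2 scale were recovered among 13869, and 94 of 100 among 14184 for the myoblast-enriched fraction. The simulation gave all genes the same fixed spread and changed only genes with many counts. It therefore does not show how often a real change would be called in these libraries. Intervals and floors cover counting error only.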

Additional observations from a re-analysis of the deposited data

Results flagged for a closer look

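The dox effect differed between C2C12iMcam and C2C12iCdh23 cells at 48 h, by edgeR's test of the difference, for Adgrb2 (-3.18), Adgrl3 (2.58), Adgrg1 (-1.14), Adgra2 (0.75) and Adgrl1 (-0.74, all log2, C2C12iMcam minus C2C12iCdh23). The value of Adgrb2 rests on few counts without dox, and Adgrb2 passed the low-count filter only through the libraries with dox. In both lines the effect had the same sign for each of these members. When single libraries were dropped, Adgrb2 and Adgrl3 passed each time, whereas Adgrg1, Adgra2 and Adgrl1 each failed in several fits. In 1 fit of all libraries, 2 of these 5 members passed. The dox effect on Adgrg6 in whole C2C12iMyoD1 cultures was higher at 120 h than at 48 h by 0.96 on the log2 scale. No group had more than 3 libraries, so single outlying libraries were not tested.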

How the results depend on the processing

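Of the members' log2 fold changes that passed or were described with no test, none changed sign under the alternatives run. Among the others, 50 values in 21 results did, each at an adjusted p of 0.32 or more (edgeR). Counts of members here include Adgrb2, and the share of all genes passing is given in brackets. Members passing at 48 h in C2C12iMyoD1 cells went from 5 (56.6%) to 3 (28.7%) in 1 fit of all libraries. At 120 h in whole cultures they went from 5 (45.2%) to 3 with the replicate block (34.5%), and ranged from 3 to 5 when single libraries were dropped (32.8% to 49.0%). In the myoblast-enriched fraction they went from 2 (4.34%) to 5 with DESeq2 (11.2%), 6 with no low-count filter (8.65%), 6 with the replicate block of 2 pairs (28.4%) and ranged from 0 to 3 when single libraries were dropped (0.0% to 5.65%), where a lone library with dox was assumed to vary like the other group. From 48 to 120 h, from 2 to 5 passed when single libraries were dropped (57.4% to 71.1%, against 67.1%). For the difference between C2C12iMcam and C2C12iCdh23 cells, 5 (10.6%) became 2 (6.13%) in 1 fit of all libraries, and the range over dropped libraries was 2 to 5 (6.2% to 11.5%). The cause was not tested. The replicate block moved no other count by more than 1.5 times. Outside the comparisons in which every one of 3 pairs passed 0.1, deviations of same-numbered libraries correlated between -0.436 and 0.431. The highest value was in the dox comparison of the myoblast-enriched fraction, where both pairs passed 0.1. By CPM without division by length, Adgrg1 was the highest member in 0 groups in place of 2, and 1 of the 5 genes most like Adgrg1 was also among the first 5 by Spearman correlation. Depth limits Adgrb1 and Adgrb3, which did not pass the low-count filter in any comparison.

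Over dropped single libraries, values that changed sign ranged as follows. With dox at 48 h, Adgrg1 was between -0.10 and 0.02. In whole cultures at 120 h, Adgrg1 was between -0.18 and 0.12 and Adgrl2 between -0.04 and 0.09. In the myotube-enriched fraction, Adgrg6 was between -0.51 and 0.10, Adgrl2 between -0.61 and 0.07, Adgrl3 between -0.25 and 0.89, Adgra2 between -0.65 and 0.11 and Adgre5 between -0.18 and 0.18. From 48 to 120 h, Adgrl2 was between -0.04 and 0.11 (-0.02 in 1 fit of all libraries) and Adgre5 between -0.05 and 0.08. Between the fractions without dox, Adgrl1 was between -0.25 and 0.22 and Adgrl3 between -0.42 and 0.21 (-0.03 with no low-count filter, -0.01 in 1 fit of all libraries, -0.06 with the replicate block). For the difference between the fractions' dox effects, Adgrl1 was between -0.44 and 0.33 and Adgrl2 between -0.37 and 0.32, and without both libraries whose labels are in doubt Adgrl1 was 0.48, Adgrb2 0.17 and Adgrg6 -0.01. For the difference between C2C12iMcam and C2C12iCdh23 cells, Adgrg6 was between -0.05 and 0.18. For that between 120 and 48 h, Adgrg1 was between -0.14 and 0.15 (0.00 with the replicate block), Adgrb2 between -1.67 and 1.23, Adgrl3 between -0.07 and 0.04 and Adgra2 between -0.33 and 0.00.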
